A study of Mus musculus with 8 samples.

Results

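Late morulae in which both Rbbp4 and Rbbp7 had been knocked down were compared with control late morulae of the mouse. At the zygote stage the double-knockdown group received small interfering RNAs (siRNAs) to both transcripts, and the control group an siRNA with no specific target. All embryos were collected 78 h after fertilization and their polyadenylated RNA was sequenced. The comparison holds 4 of the 8 libraries of the series, 2 double-knockdown and 2 control libraries, picked by their titles. The other 4 libraries, 2 from a knockdown of Rbbp4 alone and 2 from a knockdown of Rbbp7 alone, entered the fit to estimate the spread and are set beside the double knockdown at the end. The labels name no mouse strain, and whether both libraries of a group represent separate embryo pools is not stated in them. P-values therefore measure only the spread between libraries, pooled over all 4 groups, which may be technical. An siRNA lowers a transcript and leaves its gene in place, so each group is a knockdown and not a knockout.

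RBBP4 and RBBP7 are closely related WD40-repeat proteins that bind histones H3 and H4. They are shared subunits of the NuRD and SIN3 deacetylase complexes and of polycomb repressive complex 2, and RBBP4 also sits in the nucleosome assembly factor CAF-1 and in the MuvB core, which controls cell cycle genes. The late morula is the stage at which outer cells take on trophectoderm fate, the lineage of the placenta, while inner cells form the pluripotent cell mass. The series title names overlapping functions of both proteins in cell proliferation and in the deposition of the histone variant H3.3 as its subject.

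Summed normalized abundance was 11653584 and 11334107 in the double-knockdown libraries and 12011829 and 11712105 in the control libraries. Control replicate 1 stood apart, with 3937 genes listed at 0, against 2893 in control replicate 2 and 2711 and 3237 in the double knockdown. Mitochondrial transcripts held 4.26% and 5.53% of the abundance in double-knockdown replicates 1 and 2 and 6.21% and 4.29% in control replicates 1 and 2, and their part in the results was not tested. All 10 late morula markers were detected in each of these libraries, with summed levels of 40717 and 39382 in the double knockdown and 41725 and 51877 in the control. Of markers of other cells, 4 of 7 for sperm were in the table, with summed levels of 3.17 and 4.92 in the double knockdown and 0 and 2.01 in the control, and Tnp2 was at 0 in all 4 libraries. Of fibroblast markers, 4 of 7 were in the table, with sums of 24.3 and 17.1 in the double knockdown and 51.3 and 30.5 in the control. In RNA from whole embryos, fewer cells of a type and less RNA per cell cannot be told apart.

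Both siRNA targets were depleted. Rbbp7 had 327 and 266 units of normalized abundance in the double knockdown, against 8398 and 7205 in the control, and Rbbp4 had 348 and 433 in the double knockdown, against 5300 and 4710 in the control. Against the control mean, 4.20% and 3.41% of Rbbp7 and 6.95% and 8.66% of Rbbp4 remained in double-knockdown replicates 1 and 2. The log2 changes were −4.72 ± 0.14 for Rbbp7 (adjusted p = 7.83e-07) and −3.68 ± 0.15 for Rbbp4 (adjusted p = 6.08e-06), each given with its standard error from limma. Rbbp7 shares near-identical sequence with other genes over 49.7% of its transcript, so its remaining level is uncertain.

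Beyond the targets, H3f3b, Cd209c, Plau and BC051019 rose and Pank3, Trim28, Smpd1 and Plet1 fell in the double knockdown, to name genes with high levels or large changes. Of these, the calls of H3f3b, Pank3, Trim28 and Smpd1 were not kept in every fit with a library left out. The text below takes genes with a mean of at least 200 in the higher group, called here well expressed, and calls a gene at an adjusted p below 0.05 over all 12565 tested genes (limma with Benjamini-Hochberg adjustment). Over all tested genes 144 were called (1.15%), 81 higher (0.645%) and 63 lower (0.501%), while 2176 (17.3%) had an unadjusted p below 0.05, with 8.85% higher and 8.47% lower. Among well-expressed tested genes 20.3% had such a p, with 8.76% higher and 11.6% lower. The shares of gene lists below are read beside these. The lists were drawn up with earlier results of these data known, so their shares are not independent of the data. Of the 7383 well-expressed genes tested, 117 were called, which is 1.58%, with 64 higher (0.867%) and 53 lower (0.718%). Without the targets 51 were lower. An increase of at least 2-fold was seen in 51 of the 64 genes that rose, and a decrease of at least 2-fold in 25 of the 51 that fell. Log2 changes ran from 0.75 to 2.62 among the genes that rose, with a median of 1.35, and from −0.55 to −2.38 among those that fell, with a median of −1.0. The median over all well-expressed tested genes was −0.04. Scaling the libraries to equal totals instead called 95 higher and 48 lower.

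The libraries of the groups did not overlap in any of these genes, and the same held for 44.1% of all tested genes. All 117 kept their sign under the 18 alternative settings tried. As their groups do not overlap, only quantile normalization and scaling to equal totals could have changed a sign. Their calls rested on the full set of libraries. Without double-knockdown replicate 1, 16 of the 117 were called among 19 well-expressed genes, and without replicate 2, 20 among 25. Without control replicate 1, 25 of the 117 were called among 28, and without control replicate 2, 34 among 65. Without Rbbp4-knockdown replicates 1 and 2, 15 and 14 of the 117 were called and no other well-expressed gene. Without Rbbp7-knockdown replicates 1 and 2, 58 of the 117 were called among 60 and 57 among 59. A fit to the 4 libraries alone called both targets and no other gene, and a fit with no intensity trend in the variance called 3 of the 117. Mean within-group variance was 0.335 in the double knockdown and 0.415 in the control, against 0.232 and 0.236 in the Rbbp4 and Rbbp7 knockdowns. The shared estimate of the spread is thus lower, on average, than the spread of the 2 compared groups. With limma array weights, 1 per group, 32 of the 117 were called. Of the 117, 8 genes were called whichever library was left out, namely Rbbp4, Rbbp7, Plau, BC051019, Cd209c, Klhdc7a, Plet1 and Mfn2.

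**Figure D1:**
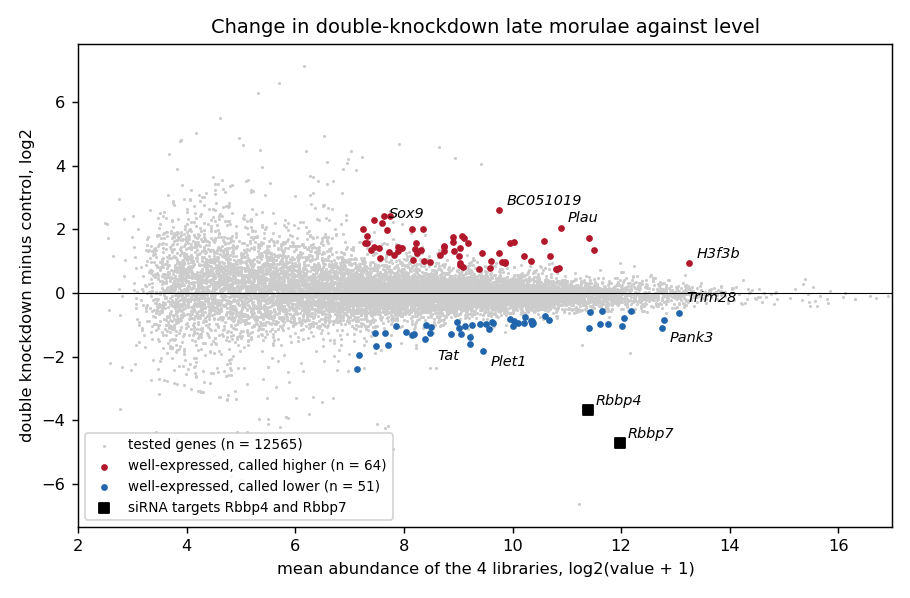
Log2 change, double knockdown minus control, of each of the 12565 tested genes against its mean level in the 4 libraries. Red and blue points are the 64 well-expressed genes called higher and the 51 called lower, black squares are the siRNA targets, and grey points farther from 0 did not pass the test or were not well expressed. H3f3b lies farthest right among the red points, and the blue points Pank3 and Trim28 lie nearly as far.

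Of the well-expressed genes that rose, H3f3b had the highest normalized abundance, uncorrected for length, and it encodes the replacement histone H3.3 (ENSMUSG00000016559, chromosome 11, 116021912 to 116027962, GRCm38). It had 12632 and 13024 units in the double knockdown and 6557 and 6874 in the control, a log2 change of 0.93 ± 0.13 (adjusted p = 0.0208). Both double-knockdown libraries lay above both control libraries, as in every well-expressed gene called higher. Groups without overlap were seen in 44.1% of all tested genes. H3f3a, the other gene that encodes H3.3, had 7833 and 6723 units in the double knockdown and 7484 and 5843 in the control, with a log2 change of 0.13 ± 0.14 (adjusted p = 0.659), and its groups overlapped. Per kilobase of annotated exon, H3f3b supplied 65.5% and 69.5% of the H3.3 transcript level in the double knockdown and 50.8% and 58.1% in the control. H3f3b shares near-identical sequence with 2 other genes over 21.6% of its transcript. H3f3a shares such sequence with 12 genes over 32.4% of its transcript, and 22.8% of its exon bases overlap other genes, so these shares are uncertain. Of 20 tested H3.3 and H3 chaperone genes H3f3b was the 1 called (5.0%, beside 1.15% of all tested genes). Ubn1, a subunit of the HIRA complex, had 525 and 438 units in the double knockdown and 694 and 737 in the control (adjusted p = 0.109).

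Among other chromatin regulators, Trim28, Mtf2, Max and Bach1 fell and Tet1 rose. Trim28, the KAP1 corepressor that silences retroelements with KRAB zinc finger proteins (chromosome 7, 12999114 to 13031035), fell to 7157 and 6402 units in the double knockdown, against 10829 and 10007 in the control, a log2 change of −0.62 ± 0.11 (adjusted p = 0.0341). Mtf2, an accessory subunit that directs polycomb repressive complex 2 to CpG islands, had 3142 and 3097 units in the double knockdown and 5294 and 5448 in the control (−0.78 ± 0.11, adjusted p = 0.0178). Max, the dimer partner of MYC and MGA, had 708 and 730 units in the double knockdown and 1256 and 1249 in the control (−0.80 ± 0.12). Each of these fell by more than the gap between the libraries of a group, which the choice of called genes favours. No overlap between groups was seen in 44.1% of all tested genes. Bach1, a haem-sensitive repressor, fell as well, at −0.56 ± 0.10. Tet1, the enzyme that oxidises 5-methylcytosine, rose instead, with 2491 and 2022 units in the double knockdown and 1400 and 1272 in the control (0.75 ± 0.13). Of 42 tested genes of complexes that hold RBBP4 or RBBP7, 30 had a negative change, the median was −0.10 and Mtf2 was the 1 called (2.38%, beside 1.15% of all tested genes). Lin37, a MuvB subunit, had 145 and 179 units in the double knockdown and 298 and 370 in the control (adjusted p = 0.0643). Ing1, a SIN3 subunit, had 640 and 621 units in the double knockdown and 318 and 456 in the control (adjusted p = 0.0977).

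Cell cycle genes that fell were Cdca3, Ncapd2, Kpna2 and E2f2. Cdca3, a trigger of mitotic entry, had 794 and 712 units in the double knockdown and 1528 and 1368 in the control, and fell by 0.94 on the log2 scale (SE 0.13). Ncapd2, a condensin I subunit that compacts mitotic chromosomes, had 958 and 889 units in the double knockdown and 1511 and 1878 in the control (−0.87 ± 0.15). Kpna2, an importin alpha that carries cargo into the nucleus, had 2194 and 2068 units in the double knockdown and 3936 and 4370 in the control (−0.96 ± 0.13). Its transcript is near-identical to other genes over 95.8% of its length, so its level is uncertain. E2f2, a factor of the G1 to S transition, fell by 1.25 on the log2 scale. Of 69 tested G2 and mitosis genes, 66 were well expressed. A negative change was found in 60, 23 of them at an unadjusted p below 0.05. Those 23 are 33.3% of the list, beside 8.47% of all tested genes and 11.6% of well-expressed ones. At that p 1 was higher (1.45%, beside 8.85% of all tested genes). Cdca3 and Ncapd2 were the 2 called (2.90%, beside 1.15% of all tested genes). The median of that list was −0.25, against −0.00056 over all tested genes, of which 49.9% were positive. Members that did not pass include Mki67, the proliferation antigen, with 1002 and 1199 units in the double knockdown and 2091 and 1765 in the control (−0.81 ± 0.16, adjusted p = 0.0531). Prc1, Pttg1 and Fbxo5 had −0.52, −0.69 and −0.62 (adjusted p = 0.0766, 0.0791 and 0.0871). In the list of DNA replication genes E2f2 was the 1 called of 59 (1.69%, beside 1.15% of all tested genes), and the median was −0.07.

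The promoters of Cdca3, Ncapd2 and Kpna2, and that of H3f3b beside them, are printed because RBBP4 is a MuvB subunit and MuvB binds the cell cycle homology region, TTTGAA, which in mitotic genes often lies near CCAAT boxes. The windows run from 250 bases before to 50 bases after a RefSeq start (GRCm38.p6), and capitals mark TTTGAA and CCAAT on either strand, with no overlapping matches in these 4 windows. Cdca3 lies at chr6:124829926-124830225 on the plus strand, and Ncapd2 at chr6:125191537-125191836, Kpna2 at chr11:106999476-106999775 and H3f3b at chr11:116024455-116024754, all 3 on the minus strand.
Cdca3: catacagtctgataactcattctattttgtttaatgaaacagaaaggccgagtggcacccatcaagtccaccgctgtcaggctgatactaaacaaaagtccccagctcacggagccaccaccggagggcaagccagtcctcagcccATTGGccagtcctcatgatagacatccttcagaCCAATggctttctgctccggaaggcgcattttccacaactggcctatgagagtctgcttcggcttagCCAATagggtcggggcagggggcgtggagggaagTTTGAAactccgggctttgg
Ncapd2: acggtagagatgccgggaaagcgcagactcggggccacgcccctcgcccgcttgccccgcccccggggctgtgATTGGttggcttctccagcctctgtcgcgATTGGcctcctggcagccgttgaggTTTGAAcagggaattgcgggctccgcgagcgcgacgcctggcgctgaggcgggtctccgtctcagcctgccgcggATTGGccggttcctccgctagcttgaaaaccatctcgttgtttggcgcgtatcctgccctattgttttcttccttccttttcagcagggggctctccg
Kpna2: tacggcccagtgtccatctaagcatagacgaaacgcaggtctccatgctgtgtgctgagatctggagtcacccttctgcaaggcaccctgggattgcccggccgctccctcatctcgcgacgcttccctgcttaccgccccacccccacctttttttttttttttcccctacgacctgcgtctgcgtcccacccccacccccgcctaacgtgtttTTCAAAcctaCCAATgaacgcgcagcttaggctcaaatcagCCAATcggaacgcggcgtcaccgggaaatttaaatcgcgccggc
H3f3b: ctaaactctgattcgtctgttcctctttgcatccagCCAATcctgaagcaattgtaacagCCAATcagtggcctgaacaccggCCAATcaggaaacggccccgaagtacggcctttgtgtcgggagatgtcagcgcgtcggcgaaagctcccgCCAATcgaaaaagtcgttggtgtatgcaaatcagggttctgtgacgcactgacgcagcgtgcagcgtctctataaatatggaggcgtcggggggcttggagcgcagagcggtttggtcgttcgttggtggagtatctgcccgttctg
The first 3 windows hold 1 TTTGAA each, and that of H3f3b holds 4 CCAAT and no TTTGAA. E2f2 has 2 windows, 1 with TTTGAA and 1 without. Of the genes named above that did not pass, Mki67, Fbxo5 and Prc1 hold TTTGAA, and the window of Pttg1 holds neither motif. Of 57 G2 and mitosis genes with a promoter in the RefSeq table, 39 held TTTGAA (68.4%) and 42 held CCAAT (73.7%). TTTGAA stood in 9 of the 47 well-expressed genes called lower that had a promoter and in 4 of the 47 called higher. Those called lower were drawn from all 53, the siRNA targets included. Over the 9527 tested genes with a promoter the share was 14.1% for TTTGAA and 43.4% for CCAAT, and over all 27025 genes with a RefSeq promoter it was 20.2% for TTTGAA and 41.1% for CCAAT. A match is a stretch of letters and not a bound site.

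Transcription factors that rose include Sox9, Nkx6-2 and Tef. Sox9, the factor of cartilage and testis development (chromosome 11, 112782224 to 112787760), had 338 and 290 units in the double knockdown and 57.3 and 80.2 in the control, a log2 change of 2.19 ± 0.30 (adjusted p = 0.0178). Nkx6-2, a homeobox factor of the nervous system, had a change of 1.01, and Tef, a PAR bZIP factor of circadian output, 1.97. Cry1, a repressor of the circadian clock, rose too, with 1307 and 1172 units in the double knockdown and 594 and 661 in the control (0.98 ± 0.13). Ciita, the master activator of MHC class II genes, rose by 1.56 on the log2 scale. Factors that fell were Id2, which holds basic helix-loop-helix proteins off DNA, with 108 and 93.8 units in the double knockdown and 330 and 296 in the control (−1.62 ± 0.21), and the immediate early nuclear receptor Nr4a1 at −1.25. Zfp367, a zinc finger protein, fell as well, at −1.04. Of 180 tested genes of homeobox, Sox, Fox, Gata and related families, 3 were called higher and 4 lower (3.89%, beside 1.15% of all tested genes), and the median was 0.08. The 3 others called besides Sox9, Nkx6-2, Id2 and Nr4a1 were at lower levels, with Foxb2 higher and Irf3 and Tcf4 lower.

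On the trophectoderm list 9 genes fell and 1 rose. The riser was the keratin Krt19, at a low level (3.43 ± 0.57). It had 141 and 205 units in the double knockdown and 8.27 and 26.1 in the control. Called members are 23.8% of the 42 tested, beside 1.15% called among all tested genes. At an unadjusted p below 0.05, 21 were lower (50%, beside 8.47% of all tested genes) and 4 higher (9.52%, beside 8.85%). The list was drawn up with earlier results of these data known. A negative change was seen in 33 of the 42, and the median was −0.34. Against the same control the median of this list was −0.04 with Rbbp4 alone depleted and −0.52 with Rbbp7 alone depleted. Plet1, a surface protein of the trophoblast lineage (chromosome 9, 50494525 to 50505482), fell to 278 and 340 units in the double knockdown, against 1127 and 1064 in the control, a log2 change of −1.83 ± 0.20 (adjusted p = 0.0114). Atp1b1, the beta subunit of the sodium pump that drives blastocoel filling, had 504 and 446 units in the double knockdown and 1000 and 1074 in the control (−1.13 ± 0.14). Fabp3, a fatty acid binding protein, had 2465 and 2242 units in the double knockdown and 4649 and 4563 in the control (−0.97 ± 0.15), but 48.9% of its transcript is near-identical to another gene, so its level is uncertain. In each of the 3 the libraries of a group lay close together and the groups far apart. Groups without overlap were found in 44.1% of all tested genes. Krt18, a keratin of simple epithelia, had 1545 and 1959 units in the double knockdown and 3300 and 4116 in the control (−1.08 ± 0.19, adjusted p = 0.0358). Enpep, a membrane aminopeptidase, Serpinb9b, of the serpin family, and Ptges, a prostaglandin E synthase, fell by 0.85, 0.96 and 0.71 on the log2 scale. The remaining members called lower were Id2, above, and Vtcn1, a B7 family protein at a low level.

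The defining factors of the lineage did not pass. Cdx2 had 1409 and 1195 units in the double knockdown and 1770 and 2869 in the control (−0.80 ± 0.21, adjusted p = 0.101), and Gata3 had −0.53 ± 0.13 (adjusted p = 0.0943). Elf3, an epithelial ETS factor, had −0.49 ± 0.11 (adjusted p = 0.0760), and Amot, a Hippo pathway scaffold, −0.49 ± 0.12 (adjusted p = 0.0904). Krt8, the partner of Krt18, had 3326 and 4333 units in the double knockdown and 4742 and 6946 in the control (adjusted p = 0.155). Of the pluripotency list 0 of 36 tested genes were called by limma, with 6 higher and 5 lower at an unadjusted p below 0.05 and a median of −0.06. Those 11 are 30.6% of the list, beside 17.3% of all tested genes. Nanog had 4192 and 4692 units in the double knockdown and 6698 and 6322 in the control (−0.55 ± 0.11, adjusted p = 0.0572). Dppa3, a maternal protector of DNA methylation, had −0.44 ± 0.10 (adjusted p = 0.0860). Of 23 tested primitive endoderm genes 0 were called, with 6 at an unadjusted p below 0.05 (26.1%, beside 17.3% of all tested genes). Near-identical sequence covers 51.8% and 54.1% of the transcripts of Krt8 and Dppa3, so their levels are uncertain.

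**Figure D2:**
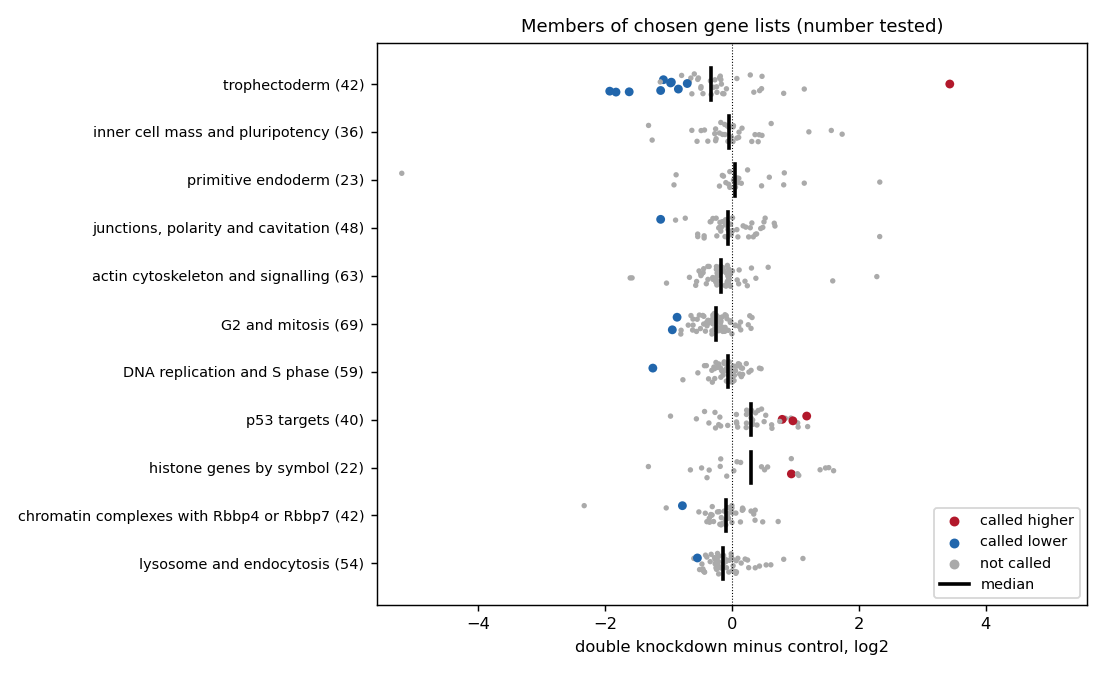
Log2 change, double knockdown minus control, of each tested member of 11 gene lists, with the number tested in brackets. Red and blue points were called higher and lower, grey points were not called, and black bars are medians. The medians of the trophectoderm and of the G2 and mitosis lists lie at −0.34 and −0.25, and those of the p53 and histone lists both lie at 0.30.

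Genes of stress and p53 signalling that rose were Pmaip1, Ddit4l and Zmat3. Pmaip1, which encodes the BH3-only death protein NOXA, had 1338 and 1125 units in the double knockdown and 669 and 596 in the control (0.96 ± 0.14, adjusted p = 0.0242). Ddit4l, an inhibitor of mTOR signalling, rose by 1.18 and Zmat3, an RNA-binding p53 target, by 0.79 on the log2 scale. These were the 3 called of 40 tested p53 targets, on a list drawn up with earlier results known (7.5%, beside 1.15% of all tested genes). A positive change was seen in 30, with a median of 0.30, and 19 of the 30 had an unadjusted p below 0.05, or 47.5% of the list beside 8.85% of all tested genes. Plk2, Phlda3, Btg2 and Mdm2 followed with 0.93, 0.75, 1.03 and 0.62 (adjusted p = 0.0511, 0.0530, 0.0608 and 0.0646). At an unadjusted p below 0.05, 3 members of the list were lower (7.5%, beside 8.47% of all tested genes). Dusp1, a phosphatase that switches off MAP kinases, rose with 987 and 680 units in the double knockdown and 222 and 251 in the control (1.79 ± 0.27). Map3k20, a kinase of the ribotoxic stress response, rose by 1.32. Trp53bp2, the ASPP2 protein that binds p53, fell to 884 and 936 units in the double knockdown, against 1548 and 1809 in the control. The heat shock genes Hspa1a, Hspa1b and Hspb1 had 1.63, 1.32 and 0.79 and did not pass (adjusted p = 0.0530, 0.0660 and 0.0530). Near-identical sequence covers 75.7%, 78.5% and 72.6% of the transcripts of Hspa1a, Hspa1b and Hspb1, so they are not measured separately from other genes.

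Histone genes other than H3f3b did not pass. Of 22 tested by symbol, H3f3b included, 14 had a positive change and 9 of them an unadjusted p below 0.05 (40.9% of the list, beside 8.85% of all tested genes). At that p 1 was lower (4.55%, beside 8.47%). H1f0, a linker histone of resting cells, had 555 and 482 units in the double knockdown and 239 and 306 in the control (0.93 ± 0.21, adjusted p = 0.0739). Hist1h2bc, H1fx and Hist3h2a had 1.52, 1.39 and 1.6 (adjusted p = 0.0897, 0.0938 and 0.0976), and Hist1h2bc and Hist3h2a share near-identical stretches with 12 and 17 other genes. The table holds 82 histone symbols, and the other genes were below the level needed for a test. Only polyadenylated RNA was sequenced, so histone transcripts without a poly(A) tail are not measured by these values.

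Secreted and extracellular genes that rose include Plau, Col9a2 and Bglap3. Plau, the secreted protease urokinase (chromosome 14, 20836660 to 20843385), had 2456 and 3660 units in the double knockdown and 614 and 851 in the control, a log2 change of 2.05 ± 0.23 (adjusted p = 0.0114). The double-knockdown libraries differed from each other. Both lay above both control libraries, as in every well-expressed gene called higher, and 44.1% of all tested genes had groups without overlap. Col9a2, a chain of the cartilage collagen IX, had 933 and 1026 units in the double knockdown and 423 and 400 in the control (1.25 ± 0.15). Bglap3, of the osteocalcin family, rose by 1.6 and Eng, the TGF-beta co-receptor endoglin, by 2.02. Dcbld2, a membrane receptor, had 1722 and 1542 units in the double knockdown and 755 and 689 in the control (1.17 ± 0.15). Efna3, an ephrin ligand, rose by 0.88. The tetraspanin Cd81 had 311 and 380 units in the double knockdown and 130 and 119 in the control (1.46 ± 0.20). Cpxm1, a secreted carboxypeptidase-like protein, fell to 53.9 and 63.2 units in the double knockdown, against 247 and 207 in the control (−1.94 ± 0.25). Mpzl2, an adhesion protein of epithelia, had 322 and 336 units in the double knockdown and 767 and 645 in the control, and 30.7% of its exon bases overlap another gene. Igsf3, an immunoglobulin superfamily protein, fell by 1.21 on the log2 scale.

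Cd209c, Mgl2, Vav1, Klrg2, H60b and P2rx7, set together here by their known roles after their values were seen, rose. On the list of interferon and nucleic acid sensing genes 0 of 26 tested were called higher and 1, Irf3, lower, and the median was 0.10. An unadjusted p below 0.05 was found in 3 higher and 3 lower, together 23.1% of the list beside 17.3% of all tested genes. Cd209c, a C-type lectin of the DC-SIGN family (chromosome 8), had 5139 and 3289 units in the double knockdown and 1400 and 1100 in the control (1.73 ± 0.20, adjusted p = 0.0114). Mgl2, a galactose-binding lectin of macrophages, had 373 and 293 units in the double knockdown and 42.8 and 85.7 in the control (2.43 ± 0.37). Vav1, a guanine nucleotide exchange factor of blood cells, had 421 and 478 units in the double knockdown and 138 and 89.2 in the control (2.0 ± 0.27). Klrg2, of the lectin-like receptor family, rose with 247 and 218 units in the double knockdown and 78.8 and 77.2 in the control. H60b, a ligand of the NKG2D receptor, rose by 1.79, and P2rx7, an ATP-gated channel, by 1.28. Cd209c and Mgl2 share near-identical sequence with other genes over 40.3% and 42.6% of their transcripts. Of 6 blood markers 2 were in the table, and their summed level was 113 and 139 in the double knockdown and 51.4 and 40.2 in the control. Of these Cd74 held 103 and 115 units in the double knockdown and 45.1 and 40.2 in the control, and the haemoglobin gene Hba-a1 held 9.42 and 24.4 in the double knockdown and 6.25 and 0 in the control. Of 10 cumulus and granulosa markers 5 were in the table, with sums of 116 and 88.0 in the double knockdown and 31.8 and 20.1 in the control, mostly from Foxl2. The part of these cells in the result was not tested.

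**Figure D3:**
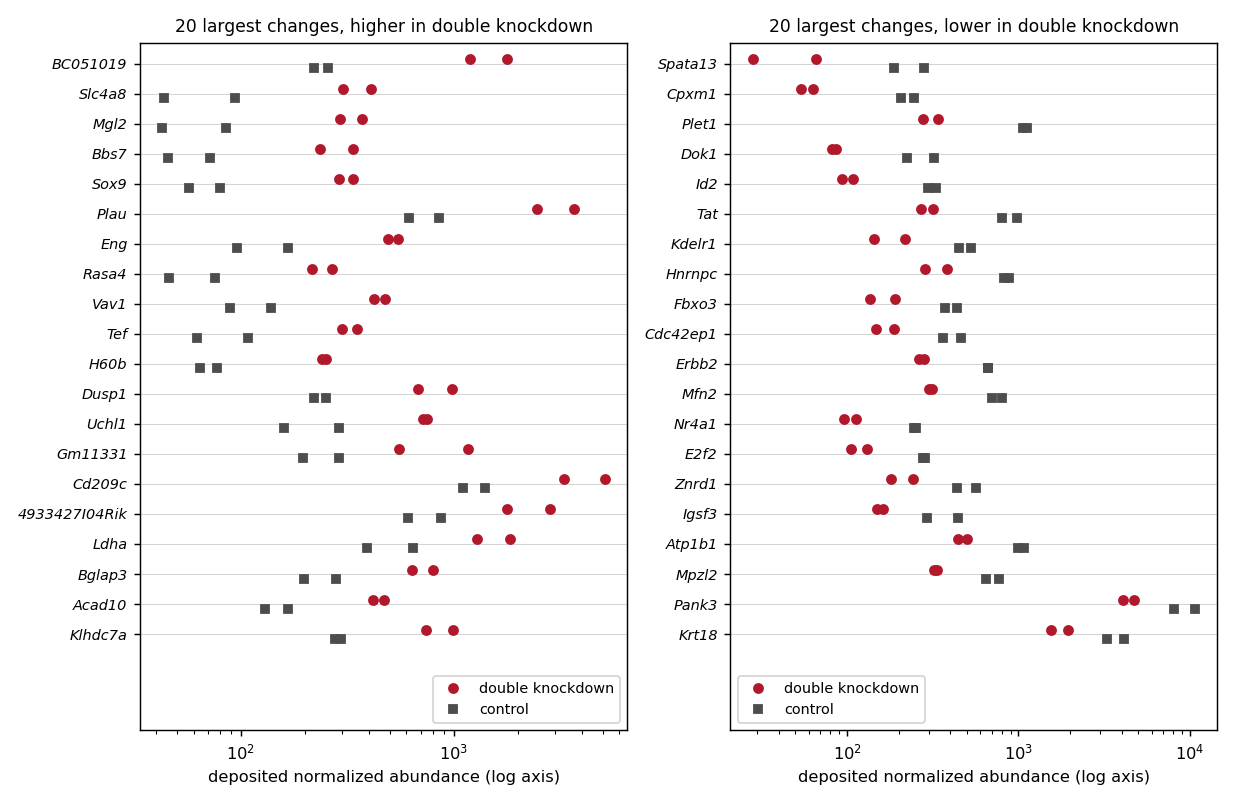
Normalized abundance in each library, on a log axis, of the 20 well-expressed genes with the largest rise (left panel) and the 20 with the largest fall other than the targets (right panel). Red circles are the 2 double-knockdown libraries and grey squares the 2 control libraries of each gene. In no gene shown do the groups overlap, which also holds for 44.1% of all tested genes. BC051019 and Spata13 head the panels with log2 changes of 2.62 and −2.38.

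Genes of growth factor and small GTPase signalling were among both those that rose and those that fell. Erbb2, a receptor tyrosine kinase, had 281 and 262 units in the double knockdown and 663 and 665 in the control (−1.29 ± 0.18), while its partner Erbb3 had −0.54 ± 0.12 and did not pass (adjusted p = 0.0698). Mob1a, the activator of LATS kinases in the Hippo pathway, fell to 908 and 906 units in the double knockdown, against 1901 and 1570 in the control (−0.93 ± 0.13). Dok1, a docking protein below tyrosine kinases, fell to 85.8 and 81.5 units in the double knockdown, against 225 and 321 in the control (−1.67 ± 0.23). In all 3 both double-knockdown libraries lay below both control libraries, as in every well-expressed gene called lower. The groups did not overlap in 44.1% of all tested genes. Of regulators of small GTPases, Rasa4, a Ras GTPase-activating protein, rose with 216 and 268 units in the double knockdown and 76.0 and 46.1 in the control, and Adap1, which acts on Arf6, rose by 1.43. Dab2ip, another Ras GTPase-activating protein, fell by 0.96, and Spata13, a guanine nucleotide exchange factor, by 2.38 with 28.1 and 66.1 units in the double knockdown and 187 and 280 in the control. The CDC42 effectors split, with the kinase Cdc42bpg rising by 0.79 and Cdc42ep1 falling by 1.30. Ptpn3, a tyrosine phosphatase, fell by 1.03 on the log2 scale, and Arrdc3, an arrestin-domain adaptor, rose by 1.44.

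Cytoskeletal genes that fell were Wdr1, which helps cofilin take actin filaments apart, at −0.87, Efhd2, a calcium-binding actin regulator, at −0.92, and Lmna, which encodes lamins A and C, at −0.93. Tubb6, a beta tubulin, rose by 0.95, Ina, a neuronal intermediate filament, by 1.11, and Cobll1, a cordon-bleu family protein, by 1.35. Bbs7, a subunit of the BBSome that carries cargo into cilia, had 237 and 338 units in the double knockdown and 71.5 and 45.3 in the control (2.29 ± 0.33). Cplane1, another cilium gene, rose by 0.83. Of the list of actin cytoskeleton and related signalling genes 0 of 63 were called by limma, and 52 had a negative change, with a median of −0.17. An unadjusted p below 0.05 was found in 14 of the 52 and in 3 with a positive change. Together they are 27.0% of the list, beside 17.3% of all tested genes and 20.3% of well-expressed ones. Actr3, a subunit of the ARP2/3 complex, had 2834 and 3017 units in the double knockdown and 4083 and 4551 in the control (−0.56 ± 0.11, adjusted p = 0.0567), and Actg1 had −0.41 ± 0.11 (adjusted p = 0.115), but 91.5% and 57.8% of their transcripts are near-identical to other genes.

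Metabolic genes that rose were Ldha, Cbs, Acad10 and Rdh10. Ldha, the lactate dehydrogenase subunit of anaerobic glycolysis, had 1290 and 1846 units in the double knockdown and 647 and 392 in the control (1.61 ± 0.25). It was the 1 called of 29 tested glycolysis genes (3.45%, beside 1.15% of all tested genes), whose median was −0.03. Cbs, the cystathionine synthase of transsulfuration, rose by 0.75, and the next enzyme Cth had 0.74 ± 0.16 without passing (adjusted p = 0.0652). Acad10, an acyl-CoA dehydrogenase, rose by 1.58 and Rdh10, which makes retinal for retinoic acid synthesis, by 0.97. Genes of lipid, cofactor, amino acid and sugar metabolism were among those that fell. Pank3, a pantothenate kinase of coenzyme A synthesis (chromosome 11, 35769484 to 35791285), had 4732 and 4058 units in the double knockdown and 10759 and 8125 in the control (−1.09 ± 0.15). Tat, tyrosine aminotransferase, fell to 317 and 269 units in the double knockdown, against 805 and 981 in the control (−1.60 ± 0.19, adjusted p = 0.0114). Smpd1, the lysosomal acid sphingomyelinase, had 2505 and 2943 units in the double knockdown and 5161 and 5960 in the control (−1.03 ± 0.13). Nsmaf, an adaptor of neutral sphingomyelinase, rose with 627 and 756 units in the double knockdown and 270 and 273 in the control (1.34 ± 0.16). Ugp2, which makes UDP-glucose, fell by 1.0, St6galnac2, a sialyltransferase, by 0.92, and Pafah1b2, of platelet-activating factor hydrolase, by 0.99. Mfn2, which tethers and fuses mitochondria (chromosome 4, 147873599 to 147904704), fell to 312 and 302 units in the double knockdown, against 701 and 798 in the control (−1.28 ± 0.15, adjusted p = 0.0114).

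Of transport genes, Slc4a8, a sodium-driven bicarbonate exchanger, rose by 2.44, Slc37a2, a sugar phosphate exchanger, by 1.26 and Slc16a6, of the monocarboxylate transporter family, by 1.16. They were the 3 called of 222 tested solute carriers (1.35%, near the 1.15% of all tested genes), whose median was 0.03. Clic4, a chloride intracellular channel protein, fell by 0.84 at a high level, with 4434 and 5782 units in the double knockdown and 8790 and 9388 in the control. Of membrane traffic genes, Kdelr1, which returns proteins to the endoplasmic reticulum, fell with 218 and 143 units in the double knockdown and 528 and 447 in the control (−1.45 ± 0.22). Snx1, a sorting nexin that works with retromer, fell by 0.55, Kif16b, an endosome motor, by 0.93 and Pik3c2a, a lipid kinase of endocytosis, by 1.07. Of 54 tested lysosome and endocytosis genes 36 had a negative change, and the median was −0.14. Snx1 was the 1 called (1.85%, beside 1.15% of all tested genes). Pgap1, which trims GPI anchors, rose with 3920 and 4295 units in the double knockdown and 2127 and 1223 in the control, and Serinc5, a lipid-transporting membrane protein, rose by 1.40.

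Of genes of the ubiquitin system, Uchl1, a deubiquitinase abundant in neurons and oocytes, rose with 753 and 718 units in the double knockdown and 159 and 290 in the control (1.77 ± 0.30). The ligases Hectd4 and Rnf169 and the conjugating enzyme Ube2r2 rose by 1.01, 1.20 and 1.32. Btrc, an F-box protein that marks beta-catenin for destruction, fell by 0.60, Fbxo3 by 1.32 and Ube2m, the enzyme that passes NEDD8 to cullins, by 0.74. Of 346 tested genes of this kind 4 were called higher and 3 lower, Trim28 among them (2.02%, beside 1.15% of all tested genes). Hnrnpc, a nuclear RNA-binding protein, fell to 381 and 285 units in the double knockdown, against 826 and 884 in the control (−1.37 ± 0.17), and 31.8% of its transcript is near-identical to another gene. Ddx19b, a helicase of messenger RNA export, rose by 0.77, and Znrd1, a subunit of RNA polymerase I, fell by 1.24.

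Sycp1, Pramef17 and Tdpoz2, which rose, are normally active in germ cells or early cleavage. Sycp1, which builds the synaptonemal complex of meiosis, had 339 and 389 units in the double knockdown and 144 and 125 in the control (1.43 ± 0.27). It was the 1 called of 43 tested germline genes silenced by DNA methylation (2.33%, beside 1.15% of all tested genes). Their median was 0.37 with 30 positive, beside 49.9% positive among all tested genes. The 2-cell stage family members Pramef17 and Tdpoz2 rose by 1.35 and 0.96, and both share over 50% of their transcript with other genes, so their levels are uncertain. The same holds for Gm11331, Gm13988 and BC021767, annotated as pseudogenes, which rose by 1.75, 1.58 and 1.03.

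BC051019, for which no function is given here, showed the largest rise among well-expressed genes (chromosome 7, 109712181 to 109723850), with 1786 and 1197 units in the double knockdown and 257 and 220 in the control (2.62 ± 0.28, adjusted p = 0.0114). Klhdc7a, a kelch-domain protein, had 987 and 741 units in the double knockdown and 296 and 276 in the control (1.58 ± 0.18). 4933427I04Rik had 2844 and 1788 units in the double knockdown and 869 and 613 in the control. Sec1, a fucosyltransferase, had 669 and 581 units in the double knockdown and 235 and 213 in the control (1.47 ± 0.17), and 21.0% of its exon bases overlap a gene on the other strand. Inppl1, the SHIP2 lipid phosphatase, rose by 1.01, Hpcal1, a neuronal calcium sensor, by 1.46 and Epm2aip1, a partner of laforin, by 1.19. Gm4779 rose by 1.28, and an identifier with no symbol, ENSMUSG00000079800, by 1.42. The last of the genes that fell, Sac3d1, had −1.04. For Inppl1 and Slc16a6, too, over 20% of exon bases overlap other genes. Near-identical stretches cover 21.3% to 28.2% of the transcripts of 4933427I04Rik, Acad10, Atp1b1, Bglap3, Dcbld2, Micall1, Sec1, Slc16a6 and St6galnac2, and counting by strand is not given in the sources used here.

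Both single knockdowns share the control libraries with the double knockdown, so values are given side by side. Against the control, depletion of Rbbp4 alone called 3 genes (0.0239%). Depletion of Rbbp7 alone called 3 genes (0.0239%), all of them lower. The median log2 change of the 64 genes that rose was 1.35 with both depleted, 0.44 with Rbbp4 alone depleted and 0.33 with Rbbp7 alone depleted. Of the 64, 62 were positive in the Rbbp4 knockdown, as were 52 when Rbbp7 alone was depleted. The control libraries used in choosing the genes enter both counts and favour positive signs, so nothing is read from them. Over all tested genes the medians were 0.0049 with Rbbp4 alone depleted and 0.0095 with Rbbp7 alone depleted. The 51 that fell had medians of −1.0 in the double knockdown, −0.40 with Rbbp4 alone depleted and −0.37 with Rbbp7 alone depleted. The genes were chosen by the first of these values, and nothing is read from the order of the medians. H3f3b had 0.93 in the double knockdown, 0.24 with Rbbp4 alone depleted and −0.10 with Rbbp7 alone depleted. Dcbld2 had 1.17 in the double knockdown, 0.92 with Rbbp4 alone depleted and −0.66 with Rbbp7 alone depleted. By the fitted value all 64 were highest in the double knockdown, and 43 of the 51 were lowest there, which the choice of genes favours. The other 8 were lowest in a single knockdown. Of these Enpep had −0.85 in the double knockdown, 0.20 with Rbbp4 alone depleted and −1.62 with Rbbp7 alone depleted, and Krt18, Fabp3, Serpinb9b and Dab2ip were also lowest in the Rbbp7 knockdown, at −1.51, −1.40, −1.02 and −1.02. Max, Pafah1b2 and Sac3d1 were lowest in the Rbbp4 knockdown, at −0.88, −1.05 and −1.16.

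**Figure D4:**
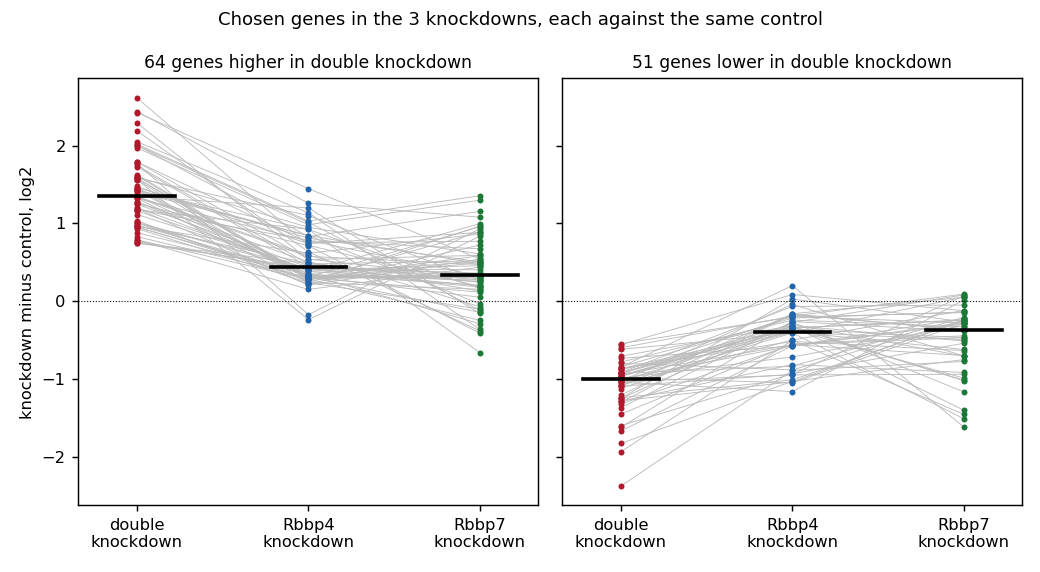
Log2 change against the shared control of the 64 well-expressed genes called higher (left panel) and the 51 called lower (right panel) in the double knockdown, in the double, Rbbp4 and Rbbp7 knockdowns. Grey lines join a gene, and black bars are medians. The medians lie at 1.35, 0.44 and 0.33 in the left panel and at −1.0, −0.40 and −0.37 in the right panel, and the genes were chosen by the leftmost column of each.

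Tested directly, the double knockdown differed from the Rbbp7 knockdown in 45 genes (0.358%), of which 15 were among the 64 that rose and 7 among the 51 that fell. Those higher in the double knockdown include Plau (2.41 ± 0.23, adjusted p = 0.00732), Dcbld2 (1.84 ± 0.15, adjusted p = 0.00291), Sox9 (2.57 ± 0.30, adjusted p = 0.0167) and H3f3b (1.04 ± 0.13, adjusted p = 0.0177). Those lower include Pank3 (−1.16 ± 0.15, adjusted p = 0.0185), Mfn2 (−1.05 ± 0.15, adjusted p = 0.0280) and Trim28 (−0.67 ± 0.11, adjusted p = 0.0453). In the Rbbp7 knockdown itself Plau had 495 and 639 units, Pank3 10004 and 9654 and Trim28 11056 and 10537. These tests share the double-knockdown libraries with the choice of genes and are not independent of it. Against the Rbbp4 knockdown 2 genes differed (0.0159%), Rbbp7 and Ndufa9, and Ndufa9, a complex I subunit named after its values were seen, had 476 and 323 units in the double knockdown, while both libraries of the Rbbp4 knockdown list it at 0. There 1203 genes had an unadjusted p below 0.05. The interaction, which is the double change minus the sum of both single changes, called 0 of the 117 genes with limma, and 1 of all 12565, Ndufa9 (0.00796%), with 815 at an unadjusted p below 0.05.

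Of the 5182 tested genes below the level of 200, 27 were called (0.521%). The 2 called genes just inside the level were Cpxm1 and Klrg2, with higher-group means of 227 and 232, and the 2 just outside were Vtcn1 and Rhov, with 198 and 183. Among the large rises was Elovl3, a fatty acid elongase, with 196 and 159 units in the double knockdown and 3.80 and 6.01 in the control (4.94 ± 0.57, adjusted p = 0.0114). Krt19, a keratin on the trophectoderm list, had 141 and 205 units in the double knockdown and 8.27 and 26.1 in the control, and Adcy5, an adenylyl cyclase, 121 and 152 in the double knockdown and 17.9 and 13 in the control. Gm12613 and Cd247, the T cell receptor zeta chain, were listed at 0 in both control libraries, with 151 and 130 and with 21.3 and 46.2 units in the double knockdown. The whole transcript of Gm12613 and 87.6% of that of Cd247 are near-identical to other genes, and 60.3% of the exon bases of Cd247 overlap other genes, so both levels are uncertain. Among the large falls Pomgnt2, a glycosyltransferase of dystroglycan, and Btbd6 were listed at 0 in both double-knockdown libraries, with 44.5 and 64.1 and with 15.2 and 71.1 units in the control. Pcbp4, an RNA-binding protein, had 12.2 and 15.2 units in the double knockdown and 118 and 87.7 in the control, Katnal1, a microtubule-severing protein, 11.5 and 8.94 in the double knockdown and 74.6 and 69.6 in the control, and Nckipsd 11.8 and 22.8 in the double knockdown and 78.2 and 117 in the control.

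Another 58 well-expressed genes differed by at least 2-fold with an adjusted p from 0.05 to 0.1, of which 37 were higher and 21 lower in the double knockdown. The 10 with the smallest adjusted p, from 0.0502 to 0.0569, were Slc25a42, Zfp326, Pcnt, Pik3cd, Cdh3, Hspa1a, Slc22a23, Thyn1, S1pr2 and Micall1. Cdh3, the P-cadherin gene, had 349 and 390 units in the double knockdown and 171 and 136 in the control. Pik3cd, a lipid kinase subunit, had 127 and 76.0 units in the double knockdown and 419 and 233 in the control.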

How the data were processed

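Embryo messenger RNA, bound to oligo(dT) beads, was broken into fragments, copied to cDNA and amplified by PCR, per the labels' protocols. The submitters' processing notes list Trimmomatic, HISAT2, featureCounts, DESeq2 and build GRCm38. For versions, settings, annotation and use of strand, the sources used here give nothing. The deposited table holds a signal: gene abundance that the authors scaled with DESeq2, as its title says. Whole reads could not be recovered, since only 46.0% to 66.2% of low values were within 0.05 of a multiple of 1 step, so depth is unknown and no count model was fitted. The table held 19058 genes. Groups and replicate numbers come from the titles. The double-knockdown columns were matched by the gene numbers in their names, which differ from the titles by an added letter and a dropped slash.

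Values were analysed as log2(value + 1), a scale that understates changes of low genes. A gene was tested where its mean over the 8 libraries reached 10, which left 12565 genes and dropped 6493. The test was limma 3.58.1 in R 4.3.3, with 1 mean per group, all 8 libraries, an intensity trend and two-sided p-values adjusted by the Benjamini-Hochberg method over all tested genes. Every adjusted p comes from this fit. Symbols and positions follow GENCODE M21 on GRCm38, and 18942 identifiers matched. Near-identical stretches had at least 97% identity over at least 100 bases (BLAST 2.17.0). Python 3.11.15 was used for tables and figures.

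The comparison, the 50 lists and the choice of named genes were made with earlier results of these data known. Named are the targets and both H3.3 genes, all well-expressed called genes but 1 that is not reported here, up to 5 rises and 5 falls at lower levels, 10 genes near the threshold, genes next to the level of 200, and from a list its called members and up to 4 more by unadjusted p. Alternatives changed the pseudocount, filter, scaling, variance model, libraries fitted and replicate block.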

Additional observations from a re-analysis of the deposited data

Results flagged for a closer look

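Ndufa9, which encodes a subunit of respiratory complex I, had 476 and 323 units in the double knockdown. It was at 0 in each library with Rbbp4 alone depleted, and had 459 and 172 units with Rbbp7 alone depleted, against 276 and 468 in the control. It was picked out because the change with Rbbp7 depletion differed between embryos with and without Rbbp4 depletion, by the interaction in limma (adjusted p = 0.00344). No fold is given, since 1 group was listed at 0.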

How the results depend on the processing

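All 117 well-expressed called genes kept their direction under the 18 alternatives, of which only quantile normalization and scaling to equal totals could have reversed it. These genes were called in a median of 8 of the 18. Of called genes, 144 in all and 117 well expressed, a fit to the 4 libraries alone left 2 and 2, limma array weights per group 38 and 32, and a fit with no intensity trend 10 and 3. The filter, pseudocount, quantile and equal-total settings gave 107 to 196 in all and 89 to 171 well expressed. Leaving out 1 library gave 18 to 94 in all, 14 to 65 well expressed, 2 to 13 against the Rbbp4 knockdown and 5 to 43 against the Rbbp7 knockdown. The 2 genes called against the Rbbp4 knockdown became 4 with a pseudocount of 10, and the 45 against the Rbbp7 knockdown became 78 with a filter of 50, 1 in a fit to the 4 libraries of that comparison and 5 with no intensity trend. With the replicate block the counts were 113, 96, 2 and 30. Replicate numbers did not pair the libraries: the correlation of deviations was −0.02 between double knockdown and control and at most 0.05 between any groups. Of single genes, H3f3a, Ndufa9 and Pou5f1, none of them called against the control, changed sign. With 1 library left out the log2 change of H3f3a ran from −0.045 to 0.31, the log2 change of Ndufa9 from −0.25 to 0.51 and the log2 change of Pou5f1 from −0.14 to 0.16, the last at −0.0062 after quantile normalization. The cause of these shifts was not tested. Where 1 library was left out, the lone library of its group was assumed to vary like the others. Depth is unknown, so genes listed at 0 have no detection limit here.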
